A study of Mus musculus with 12 samples.

Results

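A set of 122 mouse genes was examined whose transcripts were low in embryonic fibroblasts and in the first stage of reprogramming and high in the 2 groups that followed. They were chosen by their levels in CPM (a gene's count per 1000000 gene counts of its library): a mean of 5 CPM or more at Stage2 and in iPSC, a mean below 1 CPM in MEF, and a Stage1 mean of at most 1 part in 6 of both later means. Of the 23420 genes in the files, 133 met these limits. Of those, 11 were left out by symbol (Dazl, Ddx4, Hormad1, Krt42, Lefty2, Mael, Mir18b, Prmt8, Syce1, Sycp3 and Tuba3a), which left 122.

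The 12 libraries are of 4 groups with 3 replicates each. MEF are mouse embryonic fibroblasts, the starting cells. Stage1 cells were collected at day 6 of reprogramming towards induced pluripotent stem cells (iPSC), Stage2 cells after 4 further days, and the iPSC libraries come from lines already established. Every library has the strain label of a C57BL/6 and 129 mix, and the series text says that each group other than MEF was sorted for green fluorescence from an Oct4-GFP reporter, which reads the pluripotency gene Pou5f1. The sources used here do not state the reprogramming factors, the number of clones behind the iPSC or whether replicates were separate cultures. Each p-value therefore measures only the spread between these libraries, which may be technical.

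As background, mouse pluripotent stem cells transcribe many genes that fibroblasts keep silent. Among them are genes of meiosis and the germ line, many of which carry CpG-rich promoters that are methylated in somatic cells, and KRAB zinc finger genes, whose proteins recruit the corepressor Trim28 to transposable elements. Dnmt3l, a catalytically inactive partner of the de novo DNA methyltransferases, is a classical gene of embryonic stem cells. Many other genes found in these cells are better known for work in neurons, muscle or blood.

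The labels of the libraries disagree. In 12 of 12 libraries the title and the characteristic called Stage point to unlike groups: the libraries titled Stage1 are described there as MEF, those titled Stage2 as Stage1, those titled iPSC as Stage2 and those titled MEF as iPSC. The marker label shifts with it, so that libraries titled Stage1 carry the word unsorted and those titled MEF carry Oct4-GFP+. Titles were used throughout. Fibroblast markers bear on this: the summed level of 17 of them was 34166 to 39836 CPM in the libraries titled MEF and 26.6 to 364 CPM in the other 9. By the characteristics, the 122 genes would be high in the groups called Stage1 and Stage2 and low in those called MEF and iPSC. Gene totals ran from 8916223 to 19011944 counts per library, at which a count of 0 allows up to 0.158 to 0.336 CPM (3 counts of the total, for counting error only). Reads outside genes were 8.86% to 9.42% of reads in MEF, 38.1% to 45.2% at Stage1, 47.4% to 53.4% at Stage2 and 35.0% to 44.3% in iPSC.

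The name "switched on after Stage1" holds only in part. The median gene of the set had a mean of 0.0897 CPM in MEF, 1.10 CPM at Stage1, 14.9 CPM at Stage2 and 16.6 CPM in iPSC, which describes the choice and is no test. Reads were counted in all 3 Stage1 libraries for 121 of the 122 genes, and in 2 of them for the other, Fgf17. Such counts were common at Stage1: all 48 TRIM family genes of a list used below had a count in at least 1 Stage1 library. Detection alone therefore says little, and the levels say more. The Stage1 mean was below 0.5 CPM for 15 genes, below 1 CPM for 51 and 10 CPM or more for 7: Upp1, Dnmt3l, Gm13051, Stag3, Zfp534, Triml2 and Sorl1. Stage1 stood at a median of 8.97% of the Stage2 level (range 1.13% to 16.4%) and 7.77% of the iPSC level (range 1.602% to 16.6%). In MEF, 35 of the genes had no count in any library. Summed over the set, the level was 24.0 to 30.3 CPM in the MEF libraries, 352 to 372 CPM at Stage1, 4562 to 4658 CPM at Stage2 and 4263 to 4605 CPM in iPSC. In bulk RNA, fewer cells that transcribe a gene and less transcript per cell cannot be told apart.

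**Figure D1:**
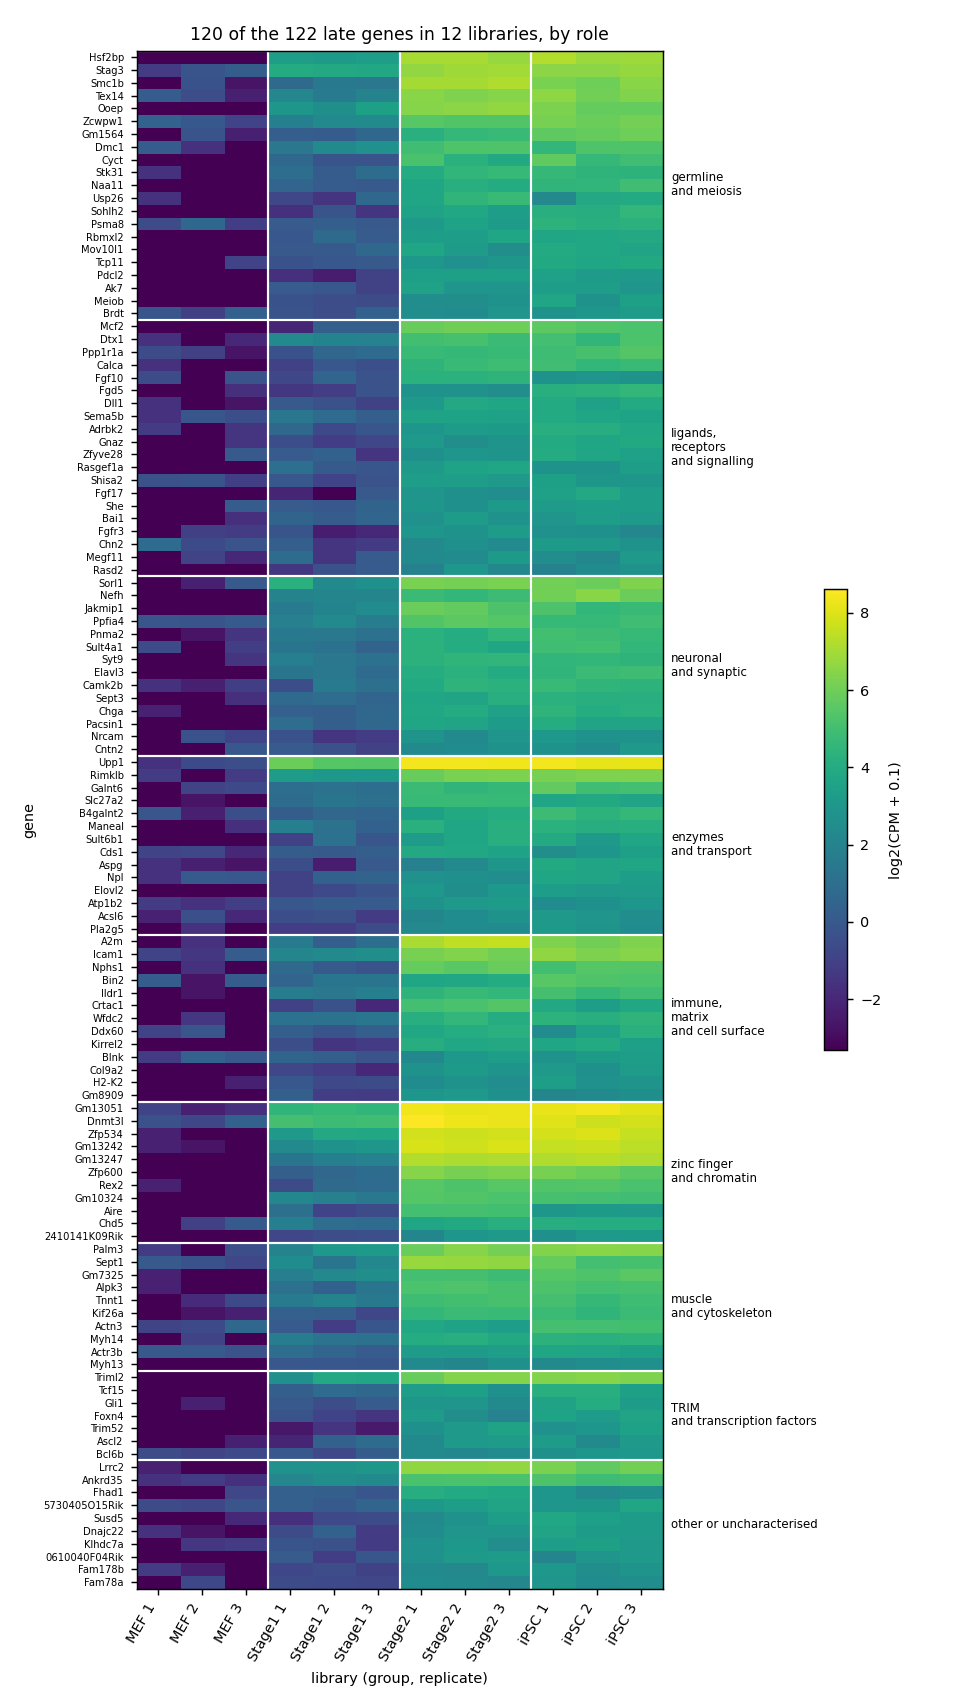
Level of 120 of the 122 genes (rows, grouped by role and ordered by level) in each of the 12 libraries (columns), as log2(CPM + 0.1) on the colour scale. The 3 MEF columns are darkest, the Stage1 columns are dark with single brighter rows such as Upp1 and Dnmt3l, and the 6 Stage2 and iPSC columns are brighter than those of Stage1 in every row.

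At the edges of the choice, the genes just inside and just outside differed little. For the level of 5 CPM, Fam78a, Bcl6b and Gm8909 lay inside with a lower late mean of 5.02, 5.04 and 5.16 CPM, and Rhov, Trim63 and Gm2694 outside with 4.79, 4.77 and 4.66 CPM. For the MEF limit of 1 CPM, Chn2, Actr3b and Zcwpw1 lay inside at 0.990, 0.856 and 0.845 CPM, and Whrn, Apod and Kcnh2 outside at 1.02, 1.14 and 1.28 CPM. For the ratio of 6 to Stage1, Fhad1, Bai1 and Tcf15 lay inside at 6.02, 6.11 and 6.11, and Tmem191c, Aurkc and Slc39a4 outside at 5.998, 5.95 and 5.86.

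The difference between Stage2 and established iPSC was not itself a limit of the choice and was tested. The limits could still restrict it, since both means had to reach 5 CPM and 6 times Stage1. Genes with a large change could thus be left out, such as D1Pas1 (25.9 CPM at Stage2 and 4.24 CPM in iPSC). The shares over all genes are therefore given for reference only. By the quasi-likelihood test of edgeR, fitted to 14770 genes and with a call at a Benjamini-Hochberg adjusted p below 0.05, 17 of the 122 genes were higher in iPSC than at Stage2 (13.9%, where 9.21% of all genes were higher) and 11 were lower (9.02%, where 8.87% of all genes were lower). The other 94 did not pass. The median log2 fold change was 0.25 over the set and 0.04 over all genes. By plain means, iPSC and Stage2 lay within 1.5-fold of each other for 80 genes, iPSC was more than 2-fold above Stage2 for 8 and more than 2-fold below for 6. All 28 called genes had libraries that did not overlap between the groups, while 62 of the 122 overlapped. Of the others, 40 had every iPSC library above every Stage2 library and 20 the reverse. Over all genes, 18.98% had iPSC above in this way and 27.19% had Stage2 above. Lack of overlap was thus common and adds little to a call. The split of the calls, 17 higher and 11 lower, depends on scaling and on single libraries. With only these 2 groups in the fit, 39 were higher and 17 lower. With library totals in place of TMM, 9 were higher and 13 lower. Adrbk2, B4galnt2, Elavl3, Gli1, Naa11, Npl and Tcf15 were among those that lost the call there. Of these, Adrbk2, Npl and Tcf15 also lost it with RLE scaling. Leaving out any one of the 6 Stage2 and iPSC libraries left 6 to 8 higher and 4 to 5 lower. Called under each of the 13 alternatives were 9 genes: Fgd5, Bin2, Actn3, Nefh and Gm1564 (higher) and Aire, Crtac1, Sept1 and A2m (lower).

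**Figure D2:**
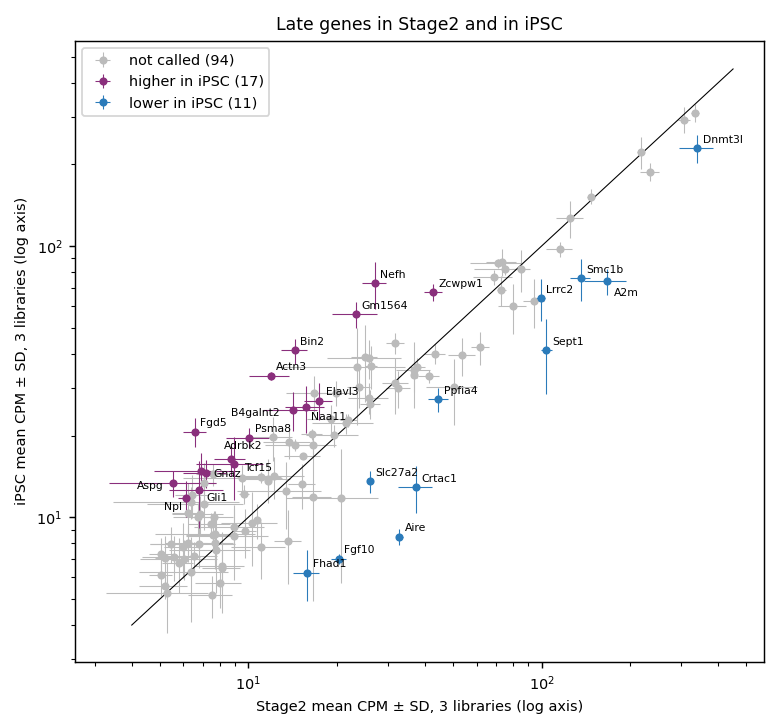
Mean CPM at Stage2 (horizontal, log axis) against iPSC (vertical, log axis) for the 122 genes, with bars of 1 SD over 3 libraries and a line of equality. The 17 genes called higher in iPSC lie above the line and the 11 called lower lie below it, while 94 grey points were not called.

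Stage1 against MEF was not used as a difference, but the choice held both groups low, and its limit of 1 CPM on MEF leaves little room for a gene to be lower at Stage1. The outcome is therefore largely set by the choice and is given as a description, with the shares over all genes for reference only. By edgeR, 100 of the 122 genes were called higher at Stage1 (82.0%, where 44.2% of all genes were higher) and 0 were called lower (where 36.1% of all genes were lower). At an unadjusted p below 0.05, 0 were lower as well, as by DESeq2, and without Stage1 replicate 1 a single gene, Chn2, was called lower. The median log2 fold change over the 87 genes with a MEF count was 2.46. Over all 122 it was 3.17 with the 35 genes at 0 in MEF set to a bound of 3 counts over the group, against 0.26 over all genes treated alike. The 22 genes without a call included Fgf10, Fgfr3, Brdt, Psma8 and Actn3. Counts in MEF were few, so fold sizes are loose.

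The 11 zinc finger and chromatin genes took the largest share of the set's reads, with summed levels of 84.7 to 88.9 CPM at Stage1, 1389.9 to 1557 CPM at Stage2 and 1137 to 1319 CPM in iPSC. Of these genes, 6 lie in 1 interval of chromosome 4. These are Gm13242 (now named Zfp980), Gm13051 (Zfp987), Zfp600, Gm13247 (Zfp981), Rex2 and Zfp534, all KRAB zinc finger genes, spread over chr4:145670697-147702631 (GRCm38, the build mm10). Their annotated upstream sequences are shown because these 6 genes share a late course and their starts resemble each other closely. Each line gives the 170 bases before the first listed RefSeq start (GRCm38.p6), 5′ to 3′ on the gene's strand, and the capitals mark the longest word shared by all 6, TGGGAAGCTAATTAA.
Zfp980: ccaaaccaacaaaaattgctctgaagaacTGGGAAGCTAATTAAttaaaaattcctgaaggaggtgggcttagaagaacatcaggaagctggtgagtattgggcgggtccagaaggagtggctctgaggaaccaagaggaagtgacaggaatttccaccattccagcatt
Zfp987: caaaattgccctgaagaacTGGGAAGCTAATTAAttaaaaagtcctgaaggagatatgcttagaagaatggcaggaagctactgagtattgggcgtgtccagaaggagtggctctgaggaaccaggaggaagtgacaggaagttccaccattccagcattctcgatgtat
Zfp600: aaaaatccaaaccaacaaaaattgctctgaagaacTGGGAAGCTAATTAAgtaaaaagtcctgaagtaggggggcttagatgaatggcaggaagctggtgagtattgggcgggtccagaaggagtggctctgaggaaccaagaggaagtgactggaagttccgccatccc
Zfp981: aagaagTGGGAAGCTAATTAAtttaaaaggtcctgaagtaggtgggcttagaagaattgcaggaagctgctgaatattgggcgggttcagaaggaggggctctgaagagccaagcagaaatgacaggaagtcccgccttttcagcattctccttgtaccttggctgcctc
Rex2: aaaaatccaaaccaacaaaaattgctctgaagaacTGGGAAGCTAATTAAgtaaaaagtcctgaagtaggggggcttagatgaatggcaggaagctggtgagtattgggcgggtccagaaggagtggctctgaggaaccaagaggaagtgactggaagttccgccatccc
Zfp534: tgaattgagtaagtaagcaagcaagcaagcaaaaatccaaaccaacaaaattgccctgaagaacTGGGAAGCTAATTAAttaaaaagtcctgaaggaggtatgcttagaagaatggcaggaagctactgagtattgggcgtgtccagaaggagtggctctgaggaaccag
They are chr4:145670527-145670696, chr4:146097142-146097311, chr4:146156657-146156826, chr4:146514750-146514919 and chr4:147021680-147021849 on the plus strand and chr4:147702632-147702801 on the minus strand. Zfp600 and Rex2 matched at 170 of the 170 bases printed. Over 250 upstream bases, identity in the 15 pairs of the 6 genes ran from 69.2% to 99.6% with a median of 79.6%. In 36 pairs of these genes with 6 interval genes outside the set, it ran from 54.4% to 96.4% with a median of 74.6%. Zfp979, outside the set, was 96.4% identical to both Zfp600 and Rex2, so the resemblance is not particular to the late genes. The shared word of 15 bases was found, on either strand, in 11 of 27025 promoters (0.0407%). These were the 6 genes, 4 further zinc finger genes of the interval and Zfp988 on chromosome 4. Zfp988 is not among the interval genes that the files hold, and its place relative to the interval was not checked.

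The 6 genes were near 0 in fibroblasts, low at Stage1 and high in both later groups, as the choice required. Gm13051 read 0.449, 0.110 and 0.210 CPM in the MEF libraries, 22.6, 25.6 and 23.4 CPM at Stage1, 323, 294 and 305 CPM at Stage2 and 296, 324 and 259 CPM in iPSC. Zfp534 read 0.112, 0 and 0 CPM in MEF, 8.68, 14.7 and 13.8 CPM at Stage1, 221, 211 and 221 CPM at Stage2 and 227, 249 and 190.1 CPM in iPSC. In both, the Stage2 and iPSC libraries overlapped, and all 6 lay far above every Stage1 library. Gm13242 read 0.112, 0.0550 and 0 CPM in MEF, 5.14, 6.59 and 7.82 CPM at Stage1, 240.0, 215 and 247 CPM at Stage2 and 187, 202 and 173 CPM in iPSC. Its 3 iPSC libraries lay below its 3 Stage2 libraries, without a call (log2 fold change -0.22, adjusted p = 0.357). Gm13247 had no count in MEF and read 2.43, 3.51 and 3.83 CPM at Stage1, 152, 143 and 148 CPM at Stage2 and 147, 163 and 146 CPM in iPSC, where the later groups overlapped again. Zfp600 averaged 79.7 ± 8.82 CPM at Stage2 and 59.98 ± 12.4 CPM in iPSC (SD, n = 3), and Rex2 43.3 ± 3.62 and 40.1 ± 3.34 CPM. None of the 6 was called between Stage2 and iPSC. How reads that match several such genes were treated is not known from the sources used here, and the files list 0 reads as aligned more than once, so levels within the family are uncertain.

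The same upstream word also stood before genes outside the set. The interval was taken as chr4:145315165-147860777, wider than the span of the 6 genes. Of its 14 protein-coding genes that the files hold, 8 were outside the set, and they are named here after their values were seen. Between Stage1 and Stage2, 3 of those 8 rose, 1 fell and 4 did not pass, where 20.6% of all genes rose and 19.8% fell. 2610305D13Rik (Zfp979) rose from a Stage1 mean of 35.7 CPM to 355 CPM, and its MEF mean of 5.95 CPM had kept it out of the set. Gm13154 (Zfp985) rose from 50.5 to 134 CPM and was lower again in iPSC at 60.1 CPM (adjusted p = 0.000429, edgeR). Gm13157 (Zfp984) and Gm13212, which carry the same word, read 87.0 and 12.3 CPM at Stage1 and 130.4 and 18.1 CPM at Stage2 and were not called. Zfp933, at the far end, fell from 34.1 to 21.3 CPM. Gm13152 (Zfp982) was already at 63.4 CPM at Stage1, read 70.4 CPM at Stage2 and fell to 21.4 CPM in iPSC (adjusted p = 0.000117, edgeR).

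**Figure D3:**
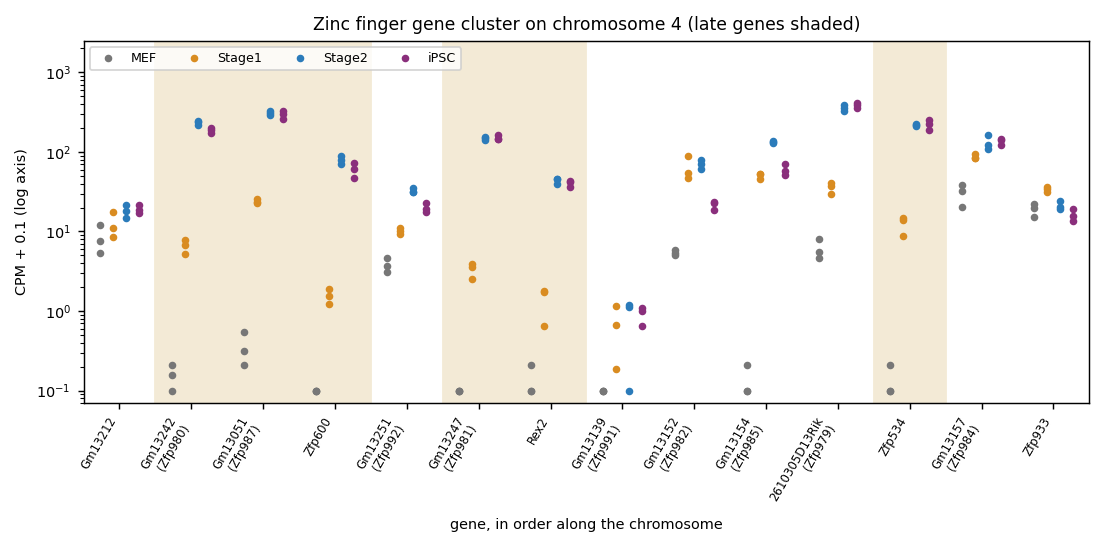
Level of the 14 protein-coding genes of the chromosome 4 interval in each library, as CPM + 0.1 on a log axis, in the order of the chromosome with the 6 late genes shaded. Shaded genes sit near the bottom in MEF, low at Stage1 and far higher in Stage2 and iPSC, a course that the limits of the choice fixed. Unshaded genes vary: Gm13152 and Gm13157 are already high at Stage1, Gm13139 has every group mean below 1 CPM, and 2610305D13Rik reaches the highest level.

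Dnmt3l was high from Stage2 on and was, with Aire, 1 of 2 among these 11 genes to fall in iPSC. It read 0.673, 0.495 and 1.21 CPM in MEF, 33.8, 28.9 and 30.9 CPM at Stage1, 392, 319 and 309 CPM at Stage2 and 260.5, 209 and 219 CPM in iPSC (log2 fold change -0.47 ± 0.16 (SE), adjusted p = 0.045). Each iPSC library lay below each Stage2 library, but the call was lost on leaving out any one of those 6 libraries. Aire, the thymic regulator of tissue-restricted genes, had no count in MEF and read 2.01, 0.428 and 0.570 CPM at Stage1, 32.9, 33.5 and 31.8 CPM at Stage2 and 7.82, 8.88 and 8.73 CPM in iPSC (log2 fold change -1.85 ± 0.31 (SE), adjusted p = 0.00136). Its Stage2 libraries were nearly equal, and all lay above its iPSC libraries. The Aire and Dnmt3l gene spans, chr10:78030022-78043610 and chr10:78042287-78063622, share 1324 bases and run in opposite directions. No source used here says whether counting used the strand, so reads from the shared bases cannot be told apart. Chd5, a chromatin remodeller known from neurons, averaged 15.4 ± 2.19 CPM at Stage2 and 16.8 ± 0.420 CPM in iPSC (SD, n = 3). The remaining pair, Gm10324 and 2410141K09Rik on chromosome 13, are zinc finger genes with 89.6% identity over 250 upstream bases, and are named after their values were seen.

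Genes of the germ line and meiosis were the largest group, with 21 genes. Of these, 4 rose from Stage2 to iPSC (Gm1564, Psma8, Naa11 and Zcwpw1), 1 fell (Smc1b) and 16 did not pass, with a median log2 fold change of 0.45. Over all genes, 9.21% were higher and 8.87% lower in iPSC, and the counts of the smaller groups that follow stand beside these same shares. The role groups were formed after the values were seen.

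Hsf2bp, which brings recombination proteins to meiotic chromosomes, had no count in MEF and read 10.2, 8.91 and 10.2 CPM at Stage1, 133, 134 and 109.7 CPM at Stage2 and 150.3, 115 and 116 CPM in iPSC. Stag3, a cohesin subunit of meiosis, read 0.336, 0.770 and 1.05 CPM in MEF, 16.2, 14.6 and 14.1 CPM at Stage1, 102, 119.7 and 124 CPM at Stage2 and 93.0, 94.2 and 104 CPM in iPSC. Both had overlapping libraries in the later groups and neither was called there. Smc1b, the partner cohesin subunit, read 0, 0.715 and 0.0526 CPM in MEF, 1.67, 2.74 and 2.52 CPM at Stage1, 130.4, 129 and 148 CPM at Stage2 and 75.03, 63.2 and 90.4 CPM in iPSC (log2 fold change -0.74 ± 0.25 (SE), adjusted p = 0.0492). Its libraries did not overlap between Stage2 and iPSC, and the fall was lost on leaving out any one of the 6 later libraries and with no filter on low counts, among other settings. Tex14, needed for the bridges between germ cells, read 1.01, 0.605 and 0.105 CPM in MEF, 4.52, 2.91 and 3.91 CPM at Stage1, 90.0, 78.7 and 86.0 CPM at Stage2 and 97.3, 67.9 and 81.3 CPM in iPSC, where the later groups overlapped.

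Gm1564 (now Meioc), required for the long prophase of meiosis, rose furthest in iPSC among these genes. It read 0, 0.770 and 0.105 CPM in MEF, 1.11, 1.03 and 1.55 CPM at Stage1, 18.8, 24.6 and 26.6 CPM at Stage2 and 49.9, 56.0 and 62.4 CPM in iPSC (log2 fold change 1.36 ± 0.29 (SE), adjusted p = 0.00449), with no overlap between the later groups. Zcwpw1, a reader of histone marks at recombination sites, averaged 42.6 ± 3.04 CPM at Stage2 and 67.6 ± 4.99 CPM in iPSC (SD, n = 3; log2 fold change 0.76, adjusted p = 0.0139). Psma8, a proteasome subunit of spermatocytes, averaged 10.1 ± 1.67 and 19.6 ± 1.68 CPM (adjusted p = 0.0267). Naa11, a testis form of an N-terminal acetyltransferase, averaged 15.7 ± 2.41 and 25.4 ± 4.92 CPM (adjusted p = 0.027). All 4 had iPSC libraries above every Stage2 library. The recombinase gene Dmc1 averaged 36.8 ± 5.01 and 34.8 ± 9.53 CPM and did not pass. Ooep, a gene of the maternal complex of the egg, averaged 94.2 ± 7.77 and 62.8 ± 12.8 CPM without a call (adjusted p = 0.0934). Sohlh2, a germ cell transcription factor, averaged 12.1 ± 2.01 and 19.8 ± 3.63 CPM and did not pass either (adjusted p = 0.065). Cyct, the testis cytochrome c, spread widely, at 35.8, 19.3 and 15.1 CPM in the Stage2 libraries and 51.5, 25.01 and 30.8 CPM in iPSC.

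As background, several germline promoters hold the E2F-like word GCGGGAA, which the silencing complex PRC1.6 can bind. Of the 19 germline genes with a RefSeq promoter, 6 held it in the window from 250 bases before to 50 after the start, on either strand. Over all of the set it was in 9 of 96 promoters (9.38%), against 9.53% of the 7821 promoters of genes at 5 CPM or more at both Stage2 and iPSC, and 6.09% of 17692 promoters of genes in the files. The 150 bases before the start are shown for the 4 germline genes whose match lies within them, with the match in capitals. All 4 matches are on the reverse strand, so the capitals read TTCCCGC.
Hsf2bp: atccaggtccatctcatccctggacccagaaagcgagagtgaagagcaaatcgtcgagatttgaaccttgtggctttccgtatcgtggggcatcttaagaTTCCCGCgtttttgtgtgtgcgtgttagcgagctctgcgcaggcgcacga
Naa11: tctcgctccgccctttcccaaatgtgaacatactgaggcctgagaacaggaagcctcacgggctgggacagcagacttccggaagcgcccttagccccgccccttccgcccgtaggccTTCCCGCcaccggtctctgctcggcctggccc
Smc1b: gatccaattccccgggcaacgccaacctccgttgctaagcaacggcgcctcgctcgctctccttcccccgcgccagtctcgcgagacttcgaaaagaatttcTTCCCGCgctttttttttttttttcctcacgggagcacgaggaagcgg
Tex14: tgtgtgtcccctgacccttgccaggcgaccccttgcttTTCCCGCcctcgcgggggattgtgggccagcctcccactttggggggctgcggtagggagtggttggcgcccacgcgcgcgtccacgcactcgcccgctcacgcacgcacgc
They are chr17:32034509-32034658, chr5:97392331-97392480 and chr15:85131958-85132107 on the minus strand and chr11:87404915-87405064 on the plus strand, and the matches start 50, 32, 48 and 112 bases before the annotated start. A match is a description of the letters only. Of these 4 genes, Naa11 was called higher in iPSC than at Stage2, Smc1b was called lower and 2 were not called. The call was lost under 6 of 13 alternatives for Naa11 and 8 of 13 for Smc1b. Whether the 4 differ in course was not tested.

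Among TRIM and transcription factor genes, Trim52 had the lowest Stage1 mean in CPM of all 122 genes and, per kilobase of exon, the lowest but for Nrcam. It belongs to a family of ubiquitin ligases, had no count in MEF and read 0.0695, 0.257 and 0.0814 CPM at Stage1, 6.27, 8.66 and 11.8 CPM at Stage2 and 6.40, 7.60 and 11.5 CPM in iPSC. Its later libraries overlapped throughout (log2 fold change 0.02 ± 0.34 (SE), adjusted p = 0.972). Its span is chr14:106106198-106135862. Triml2, a TRIM-like gene, was at 20.3 CPM per kilobase at Stage2 against 2.53 for Trim52. It averaged 11.3 ± 4.46 CPM at Stage1, 75.04 ± 16.1 CPM at Stage2 and 82.0 ± 3.94 CPM in iPSC (SD, n = 3). Of the 7 genes of this group, 2 rose in iPSC: Tcf15, a helix-loop-helix factor of cells leaving naive pluripotency (8.90 ± 2.29 to 15.7 ± 4.14 CPM, adjusted p = 0.0481), and Gli1, a target and effector of Hedgehog signalling (6.78 ± 1.40 to 12.6 ± 3.49 CPM, adjusted p = 0.0444). Both calls were lost with library totals. Foxn4, Ascl2 and Bcl6b, transcription factors of other lineages, did not pass.

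Signalling genes numbered 20, of which 3 rose in iPSC, 1 fell and 16 did not pass. The ligand Fgf10, a growth factor of lung and limb buds, fell: it read 0.561, 0 and 0.736 CPM in MEF, 0.486, 1.37 and 0.733 CPM at Stage1, 19.4, 19.8 and 21.7 CPM at Stage2 and 6.85, 7.39 and 6.82 CPM in iPSC (log2 fold change -1.43 ± 0.39 (SE), adjusted p = 0.0183). It did not pass between MEF and Stage1. Its later groups did not overlap, but the call was lost on leaving out any one of those 6 libraries. Another ligand of the family, Fgf17, averaged 6.44 ± 0.817 CPM at Stage2 and 12.1 ± 2.19 CPM in iPSC (SD, n = 3), with iPSC above in each library but no call (adjusted p = 0.119). The receptor gene Fgfr3 averaged 8.001 ± 1.44 and 5.70 ± 1.08 CPM, also without a call.

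Fgd5, an exchange factor for the small GTPase Cdc42, rose most of the set. It read 0, 0 and 0.210 CPM in MEF, 0.278, 0.343 and 0.733 CPM at Stage1, 7.02, 6.75 and 5.91 CPM at Stage2 and 18.3, 20.3 and 23.5 CPM in iPSC (log2 fold change 1.76 ± 0.32 (SE), adjusted p = 0.00181). Gnaz, a G protein alpha subunit, read 0, 0 and 0.263 CPM in MEF, 0.625, 0.343 and 0.489 CPM at Stage1, 8.32, 5.96 and 7.24 CPM at Stage2 and 15.8, 12.6 and 15.1 CPM in iPSC (log2 fold change 1.116 ± 0.34 (SE), adjusted p = 0.0313). In both genes each iPSC library lay above each Stage2 library, and the call of Gnaz was lost on leaving out any one of them. The third gene that rose was Adrbk2, a kinase of G protein-coupled receptors (8.71 ± 1.05 to 16.3 ± 2.16 CPM, adjusted p = 0.0475). Of the Notch pathway, the ligand gene Dll1 averaged 12.2 ± 3.25 and 14.2 ± 2.55 CPM and the regulator Dtx1 31.7 ± 3.24 and 31.3 ± 7.28 CPM, and neither passed. Mcf2, the exchange factor Dbl, averaged 61.8 ± 4.45 and 42.3 ± 5.85 CPM against 0.797 ± 0.570 CPM at Stage1.

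Among 15 neuronal and synaptic genes, 3 rose in iPSC, 1 fell and 11 did not pass. Nefh, the heavy neurofilament subunit, had the smallest p of the set. It had no count in MEF and read 3.96, 4.196 and 4.15 CPM at Stage1, 27.9, 24.1 and 29.0 CPM at Stage2 and 67.8, 89.0 and 61.6 CPM in iPSC (log2 fold change 1.54 ± 0.19 (SE), adjusted p = 0.000117). Its iPSC libraries all lay above its Stage2 libraries. Elavl3, a neuronal RNA-binding protein, rose from 17.4 ± 1.87 to 26.9 ± 4.197 CPM (adjusted p = 0.0332), and Ppfia4, a scaffold of the presynapse, fell from 44.5 ± 3.62 to 27.3 ± 2.78 CPM (adjusted p = 0.0293). The sorting receptor gene Sorl1 read 19.2, 5.05 and 6.27 CPM at Stage1, so that its Stage1 mean rests mainly on replicate 1. Of 9 neural marker genes outside the set, 7 were tested between Stage1 and Stage2, with 3 higher and 1 lower, and their summed level was 83.5 to 91.1 CPM at Stage1, 107 to 122 CPM at Stage2 and 109 to 122 CPM in iPSC. In MEF the same 9 genes summed to 175 to 291 CPM, so the list is not particular to neurons. Dcx, a marker of young neurons, was below 1 CPM in all 4 groups by its mean, but this 1 gene does not speak for the list. The part of such cells in these levels was not tested.

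Muscle and cytoskeleton genes numbered 10, with 1 called in each direction. Actn3, the alpha-actinin of fast muscle fibres, rose: it read 0.449, 0.550 and 1.47 CPM in MEF, 0.973, 0.343 and 0.814 CPM at Stage1, 13.9, 11.5 and 10.3 CPM at Stage2 and 34.6, 32.9 and 32.3 CPM in iPSC (log2 fold change 1.58 ± 0.28 (SE), adjusted p = 0.00125). Its MEF and Stage1 libraries overlapped. Sept1, a septin GTPase, fell: it read 0.897, 0.715 and 0.473 CPM in MEF, 5.42, 2.40 and 4.64 CPM at Stage1, 107, 106 and 98.6 CPM at Stage2 and 55.7, 32.5 and 35.3 CPM in iPSC (log2 fold change -1.24 ± 0.22 (SE), adjusted p = 0.00154). Replicate 1 of iPSC stood above the other two and still below every Stage2 library. The striated muscle genes Tnnt1 (a slow troponin) and Alpk3 (a muscle kinase) averaged 32.4 ± 3.03 and 37.6 ± 2.32 CPM at Stage2 and 29.8 ± 4.66 and 35.7 ± 2.96 CPM in iPSC (SD, n = 3), and neither passed.

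Of 15 enzyme and transporter genes, 3 rose in iPSC, 1 fell and 11 did not pass. Upp1, which splits uridine, had the highest level per kilobase of the set. It read 0.224, 0.550 and 0.631 CPM in MEF, 60.7, 44.2 and 42.1 CPM at Stage1, 334, 343 and 323 CPM at Stage2 and 339, 292 and 302 CPM in iPSC, and the later groups overlapped (log2 fold change -0.003 ± 0.15 (SE), adjusted p = 0.993). Per kilobase of annotated exon its level was 24.99 CPM at Stage1, 170.02 CPM at Stage2 and 159 CPM in iPSC. On that scale Dnmt3l followed at Stage2 with 114 CPM per kilobase, then Gm13051 with 101 and Zfp534 with 75.5. Slc27a2, a fatty acid transporter and acyl-CoA synthetase, fell: it read 0, 0.0550 and 0 CPM in MEF, 1.74, 2.40 and 2.04 CPM at Stage1, 26.5, 26.0 and 25.6 CPM at Stage2 and 13.4, 14.9 and 12.4 CPM in iPSC (log2 fold change -0.84 ± 0.22 (SE), adjusted p = 0.0161). Aspg, an asparaginase, rose: it read 0.224, 0.110 and 0.0526 CPM in MEF, 0.625, 0.0856 and 0.896 CPM at Stage1, 3.56, 5.16 and 7.91 CPM at Stage2 and 15.02, 12.3 and 12.7 CPM in iPSC (log2 fold change 1.36 ± 0.37 (SE), adjusted p = 0.0194). Neither gene's later groups overlapped, and each call was lost without any one of 5 libraries. The others that rose were Npl, which cleaves sialic acid (adjusted p = 0.0471), and B4galnt2, a glycosyltransferase (adjusted p = 0.0344).

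Immune, matrix and cell surface genes numbered 13, of which 1 rose in iPSC and 2 fell. Crtac1, which encodes a secreted matrix protein of cartilage and brain, had no count in MEF and read 0.417, 0.685 and 0.163 CPM at Stage1, 33.2, 35.8 and 42.9 CPM at Stage2 and 14.6, 10.02 and 14.1 CPM in iPSC (log2 fold change -1.44 ± 0.25 (SE), adjusted p = 0.00143). It lies at chr19:42283035-42432966. A2m, a broad protease inhibitor, read 0, 0.220 and 0 CPM in MEF, 3.06, 1.11 and 1.87 CPM at Stage1, 137, 175 and 189 CPM at Stage2 and 79.6, 64.5 and 78.0 CPM in iPSC (log2 fold change -1.07 ± 0.22 (SE), adjusted p = 0.00361). Both were highest at Stage2, with every Stage2 library above every iPSC library. Bin2, an adaptor of blood cells that senses membrane curvature, rose: it read 1.01, 0.0550 and 0.999 CPM in MEF, 1.39, 2.40 and 2.36 CPM at Stage1, 13.1, 14.1 and 16.0 CPM at Stage2 and 46.0, 40.2 and 37.4 CPM in iPSC (log2 fold change 1.62 ± 0.31 (SE), adjusted p = 0.00261). None of the 8 macrophage marker genes in the files could belong to the set, since each averaged above the limit of 1 CPM in MEF. Their summed level was 26.7 to 36.6 CPM at Stage1, 44.0 to 56.6 CPM at Stage2 and 24.4 to 33.8 CPM in iPSC, against 118 to 124 CPM in MEF. Icam1, an adhesion molecule of inflamed endothelium, averaged 73.3 ± 8.53 and 87.4 ± 10.1 CPM and did not pass. H2-K2 and Gm8909 belong to the class I histocompatibility family, whose members share sequence, so their counts are uncertain.

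Among the 10 genes left over, Lrrc2 and Fhad1 fell in iPSC. Lrrc2, a leucine-rich repeat gene, read 0.112, 0 and 0 CPM in MEF, 6.53, 6.68 and 7.90 CPM at Stage1, 99.3, 95.9 and 103 CPM at Stage2 and 73.6, 51.6 and 67.1 CPM in iPSC (log2 fold change -0.54 ± 0.17 (SE), adjusted p = 0.0375). Fhad1, named for its forkhead-associated domain, read 0, 0 and 0.473 CPM in MEF, 1.18, 1.11 and 0.814 CPM at Stage1, 17.5, 15.8 and 14.3 CPM at Stage2 and 7.65, 4.97 and 6.09 CPM in iPSC (log2 fold change -1.25 ± 0.39 (SE), adjusted p = 0.034). In both, all Stage2 libraries stood above all iPSC libraries, and both calls were lost without any one of the 6 libraries.

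**Figure D4:**
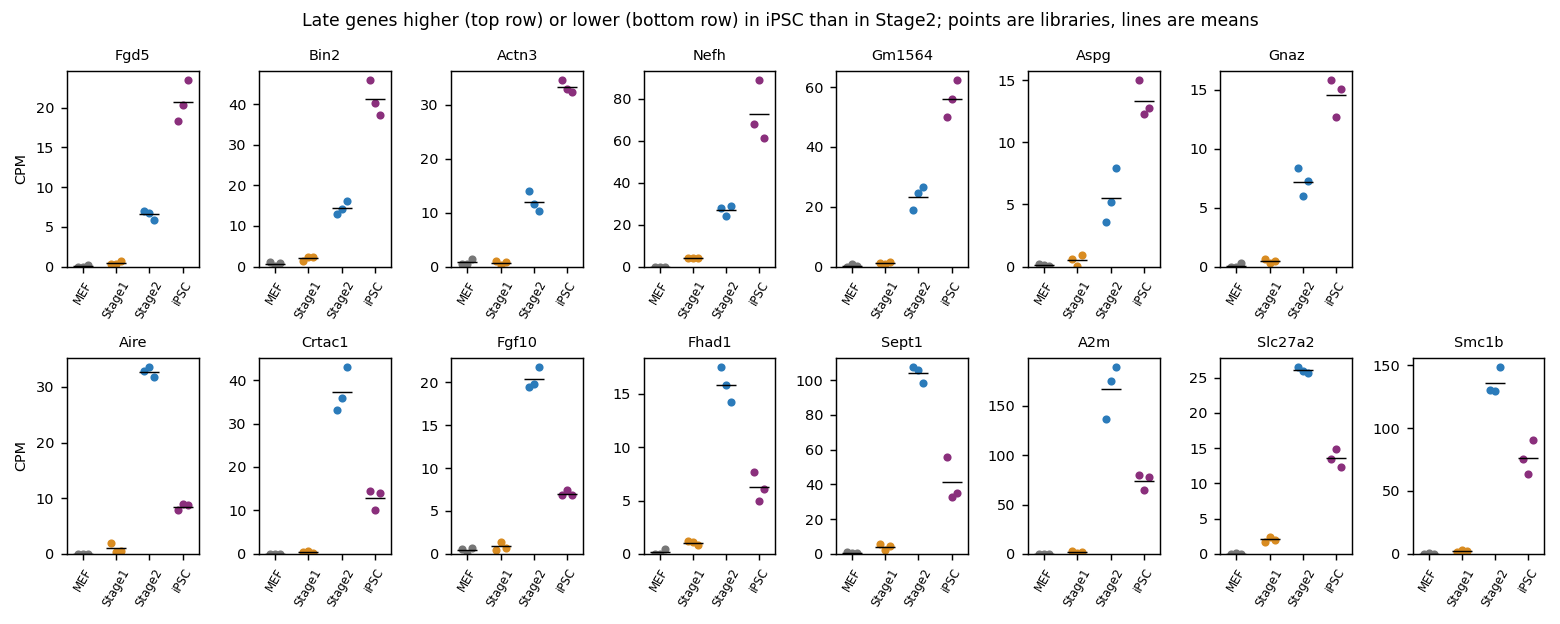
CPM of each library (points) and group means (lines) for 7 of the 8 genes with the largest called rise (top row) and the 8 with the largest called fall (bottom row) from Stage2 to iPSC. Top genes such as Fgd5 and Nefh step up again in iPSC, and bottom genes such as Aire and Crtac1 peak at Stage2, with MEF and Stage1 near the baseline in every panel.

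Spread between replicates was moderate. The highest over the lowest library had a median of 1.32 at Stage2 and 1.33 in iPSC over the 122 genes, where genes at 5 CPM or more had 1.21 in each. It was within 1.5-fold for 96 genes at Stage2 and 97 in iPSC. The widest were Foxn4 at Stage2, with a ratio of 2.52, and Ddx60 in iPSC, with 3.66, where the libraries read 5.25, 11.2 and 19.2 CPM.

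Related genes outside the set were followed by lists chosen with earlier results of these data known. Of 41 germline genes known to be silenced by DNA methylation, 39 were in the files and 7 belonged to the set by symbol (Meioc is listed in the files under its older name, Gm1564). Of the 28 others tested, 18 rose from Stage1 to Stage2, 2 fell and 8 did not pass, where 20.6% of all genes rose and 19.8% fell. Of the 18, 6 had met the limits and were dropped by symbol (Dazl, Ddx4, Mael, Hormad1, Sycp3 and Syce1), so their direction was fixed by the choice. Without these, 12 of 22 rose and 2 fell. Dazl, an RNA-binding protein of germ cells, averaged 0.888 CPM at Stage1 and 25.04 CPM at Stage2. Tex15 and Piwil2, both of the germline piRNA pathway, were the 2 that fell, with Stage1 means of 84.5 and 26.1 CPM. From Stage2 to iPSC, 8 of the 28 rose and 4 fell: Stra8, the retinoic acid target that opens meiosis, went from 2.09 to 19.5 CPM, and D1Pas1, a testis RNA helicase, from 25.9 to 4.24 CPM. Over the 22 genes that never met the limits, the median log2 fold change was 1.23 from Stage1 to Stage2 (0.02 over all genes) and 0.19 from Stage2 to iPSC (0.04 over all genes).

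The other DNA methylation genes moved in both directions. The counts of this list and of those that follow stand beside the same shares over all genes (20.6% higher and 19.8% lower at Stage2, 9.21% higher and 8.87% lower in iPSC). Of the 11 others tested, 3 rose from Stage1 to Stage2 (Dnmt3a, Tet1 and Zbtb38), 4 fell (Dnmt3b, Tet2, Mbd1 and Mbd2) and 4 did not pass. Dnmt3a, a de novo methyltransferase, averaged 32.3 CPM at Stage1 and 119 CPM at Stage2, and the related Dnmt3b 289 and 185 CPM. From Stage2 to iPSC, 4 of the 11 fell, among them Tet1, an oxidase of methylated cytosine, from 1209 to 646 CPM, and 7 did not pass. Of 12 listed subunits and partners of PRC1.6, 1 rose (Mga) and 4 fell (Pcgf6, Tfdp1, Yaf2 and Cbx3) from Stage1 to Stage2. Of 38 TRIM genes tested beside Trim52, 9 rose and 7 fell, and Trim63 missed the set by its level alone at 4.77 CPM.

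Lists of pluripotency genes gave the setting of these changes. Of 15 general pluripotency genes outside the set, 9 rose from Stage1 to Stage2, 1 fell and 5 did not pass, and from Stage2 to iPSC 3 fell and 12 did not pass. Of 13 naive genes, 6 rose and 2 fell at Stage2, and 6 fell in iPSC while 7 did not pass. Of 14 formative and primed genes, 11 rose and 2 fell at Stage2, with a median log2 fold change of 3.47, and in iPSC 7 fell and 1 rose, with a median of -1.74. Of 7 genes known from two-cell-like cells that were tested, 7 did not pass at Stage2 and 4 rose in iPSC. The summed level of the 9 listed genes in the files was 23.6 to 30.7 CPM in iPSC against 2.54 to 3.25 CPM at Stage2.

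Fibroblast markers rose with the set from Stage1 to Stage2 and mostly fell in iPSC. Of 17, 13 rose from Stage1 to Stage2 and 4 did not pass, and from Stage2 to iPSC 12 fell and 1 rose. Their summed level was 26.6 to 37.3 CPM at Stage1, 249 to 364 CPM at Stage2 and 146 to 149 CPM in iPSC. The limit of 1 CPM on MEF held each of the 122 genes low there (at most 0.990 CPM by the mean), so their low MEF level is no finding. The same markers summed to 34166 CPM or more in MEF. For other cell types, sums are over all listed markers in the files, tested or not. Of those for endoderm, 5 of 7 tested rose from Stage1 to Stage2, with sums over 9 genes of 6.18 to 9.77 CPM and 17.4 to 18.6 CPM. For mesendoderm 2 of 3 tested rose (6.85 to 10.6 CPM and 16.0 to 23.2 CPM over 7 genes). For trophoblast 2 of 4 tested rose and 1 fell (113 to 132 CPM and 69.5 to 94.0 CPM over 8 genes). Of 9 germ cell markers tested, 7 rose and 2 fell, but 3 of the 7 (Dazl, Ddx4 and Sycp3) had met the limits and were dropped by symbol, which fixed their direction. Of the other 6, 4 rose and 2 fell. All 10 listed had sums of 155 to 207 CPM at Stage1 and 270.1 to 317 CPM at Stage2, and in iPSC 5 of the 9 rose and 1 fell. The part of any such cells in the levels of the set was not tested.

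RefSeq promoters were found for 96 of the 122 genes, and the first listed one was used where a gene has several. CpG content was measured as the observed over the expected number of CpG pairs in the 300-base window, for which low values are typical of promoters that lost CpG through methylation. The median was 0.629 over the set, 0.802 over 7821 promoters of genes at 5 CPM or more in both later groups, and 0.585 over 17692 promoters of genes in the files. A value above 0.6 was found in 54.2% of the set, 79.7% of the expressed genes and 48.9% of all. Roles differed widely: zinc finger and chromatin genes had the lowest median, 0.272 over 11 promoters, germline genes 0.674 over 19, signalling genes 0.814 over 14 and neuronal genes 0.907 over 10. The 11 are not independent. Among them are the 6 related genes of chromosome 4 (69.2% to 99.6% upstream identity) and the pair on chromosome 13 (89.6%). The E-box CACGTG was in 10.4% of the set, 11.1% of the expressed genes and 8.17% of all, and the octamer ATTTGCAT in 2.08%, 1.52% and 1.68%, each searched on both strands.

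**Figure D5:**
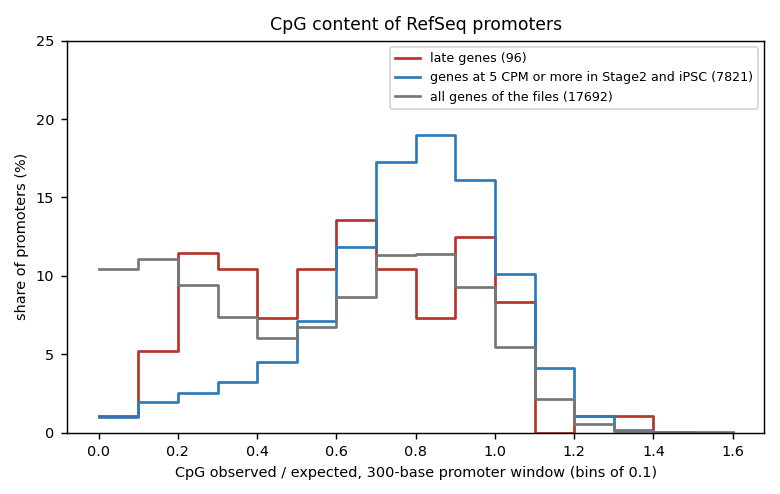
Share of promoters (vertical, %) by CpG observed over expected in bins of 0.1 (horizontal) for the late genes, for genes at 5 CPM or more at Stage2 and in iPSC, and for all genes of the files. The late genes spread over low and high values, with a median of 0.629, while the expressed genes peak between 0.8 and 0.9.

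By position, 32 of the 122 genes had another within 1 Mb. Chromosome 5 held 13 (10.7%, where 5.64% of genes in the files lie there), chromosome 4 held 12 (9.84% against 5.99%), chromosome 7 held 11 (9.02% against 9.05%), chromosome 15 held 10 (8.20% against 3.69%) and chromosome X held 3 (2.46% against 4.44%). These shares were not tested. The slit diaphragm genes Kirrel2 and Nphs1, which encode adhesion proteins of kidney podocytes, lie 691 bases apart on chromosome 7. Nphs1 averaged 1.11 ± 0.490 CPM at Stage1, 53.6 ± 5.63 CPM at Stage2 and 39.5 ± 6.35 CPM in iPSC (SD, n = 3). Kirrel2 averaged 0.403 ± 0.196, 15.3 ± 1.58 and 13.2 ± 2.45 CPM in the same order. Neither was called between Stage2 and iPSC. Bin2 and Galnt6 on chromosome 15 and Aspg and Kif26a on chromosome 12 were likewise close, and in each pair the first was called higher in iPSC while the second was not called.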

How the data were processed

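The deposited files hold raw read counts per gene symbol, and the submitters' processing notes name HTSeq 0.5.4p3, TopHat2 2.0.9, Bowtie2 2.2.6, SAMtools 0.1.19, DESeq2 1.12.4 and the build mm10, without their roles. Per the labels' protocols, RNA was extracted with the miRNeasy kit. Strandedness, annotation version and the handling of reads with several matches are not stated in the sources used here.

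CPM is a count over the sum of gene counts, without the 5 summary rows. Levels are CPM as mean ± SD of 3 libraries. Groups and replicate numbers came from the titles. All 4 groups entered 1 robust quasi-likelihood fit (edgeR 4.0.16, R 4.3.3, statmod 1.5.0, limma 3.58.1), on the 14770 genes kept by filterByExpr by group, with TMM scaling, which is why a fitted fold change differs a little from the ratio of CPM means. A call needed an adjusted p (Benjamini-Hochberg, all genes tested) below 0.05. Each SE was taken as the log2 fold change divided by the root of the F statistic. The common biological coefficient of variation was 0.190. The procedure was tested on simulated data.

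The genes and lists were chosen with earlier results of these data known, and the role groups after their values were seen. Contrasts that chose the genes are described without a test. Values in every library are given for Trim52, Crtac1, the 12 genes with the highest mean CPM over Stage2 and iPSC (not corrected for gene length) and up to 8 called genes per direction from Stage2 to iPSC. Items withheld from this text are not reported here by name or drawn by name, though counts include them. Other genes of the set, of the lists and next to a threshold may be named, and clone symbols outside these were named after their values were seen. Symbols were matched to RefSeq on GRCm38.p6, by an older symbol for 9. Exon lengths are GENCODE M21 unions.

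Alternatives were RLE scaling, library totals, no filter, 1 CPM in 3 libraries, DESeq2 1.42.0, a fit of only the groups compared, the replicate number as a block, leaving out each library, and other limits for choosing the genes.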

Additional observations from a re-analysis of the deposited data

How the results depend on the processing

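The number of genes chosen was 122 and fell to 55 with Stage1 held to 0.1 of the later levels and to 70 with 10 CPM required. It was 103 with TMM-scaled CPM, the scaling used in the tests, and 101 with MEF held below 0.5 CPM. It rose to 179 with Stage1 held to 0.25, and ranged from 119 to 134 without single libraries. Between Stage2 and iPSC, the 17 genes higher became 9 with library totals and 39 with only the groups compared, and 6 to 8 without single libraries. The 11 lower became 17 with only the groups compared, and 4 to 5 without single libraries. Of 364 fold changes of the 28 called genes under alternatives, 241 kept the call, 123 lost it and 0 changed sign. Between MEF and Stage1, the 100 genes higher became 55 with only the groups compared, where 71 could be tested, and the 0 lower became at most 1 (range 0 to 1) without single libraries. Library totals moved the median of all genes on the log2 scale by 0.18 from MEF to Stage1, by 0.20 from Stage1 to Stage2 and by -0.10 from Stage2 to iPSC. Replicates share numbers in their titles, and whether these mark pairs was not settled. Same-numbered Stage2 and iPSC libraries correlated at 0.08, 0.01 and 0.20 in their deviations, and unlike-numbered ones at -0.14 to 0.07. With the replicate block, 15 genes were higher and 10 lower in iPSC, and Smc1b, Gli1, Adrbk2 and Npl were not called. Counts in MEF limit what can be said of fold sizes there.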
